A study of Mus musculus with 52 samples.

Results

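The zinc-handling genes Mt1, Mt2, Slc30a1, Slc39a14 and Mtf1 of mouse liver are described here across 52 Affymetrix arrays. They were taken as all probe sets (sets of short DNA probes for a transcript) whose only gene symbol in the array annotation was one of the 5 names. This gave 8 probe sets of 22626, and all 8 passed the filter on low signal that 18349 probe sets passed. Mt1, Slc39a14 and Mtf1 had 2 probe sets each, and Mt2 and Slc30a1 had 1 each.

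Metallothioneins are small cysteine-rich proteins that bind zinc and copper and can bind cadmium, and the liver makes large amounts of Mt1 and Mt2 under metal load, glucocorticoids and inflammation. Mtf1 is the zinc-sensing transcription factor that binds metal response elements in the promoters of Mt1, Mt2 and Slc30a1. Slc30a1 exports zinc across the plasma membrane, and Slc39a14 (also called Zip14) takes zinc and non-transferrin-bound iron into hepatocytes.

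Livers of male B6C3F1 mice, 9 weeks old when they received a single intraperitoneal administration, were sampled at 4 h, 20 h, 14 days and 28 days. Every array held RNA pooled from 5 mice, and each chemical or control had 1 array per time, which makes 13 arrays per time. The 3 aromatic genotoxic chemicals shared 1 olive oil control per time, and these were o-aminoazotoluene or AAT at 300 mg/kg, DMBA (7,12-dimethylbenz[a]anthracene) at 20 mg/kg, and at 6 mg/kg DBP, which is dibenzo[a,l]pyrene. Each of the 3 alkylating ones had a saline control of its own, namely ENU (the nitrosourea with an N-ethyl group) at 150 mg/kg, DMN, or dimethylnitrosamine, at 5 mg/kg, and at 250 mg/kg DPN, or dipropylnitrosamine. The non-genotoxic chemicals, EtOH (ethanol) at 1000 mg/kg and PB (phenobarbital) at 30 mg/kg, shared 1 saline control. No chemical was replicated within a time, so the chemicals of a class stand in for replicates, and a p-value measures the spread between pools of different chemicals or control sets.

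Signals are given as log2 of the array-scaled intensity, on which 1 unit is a 2-fold step, and values under 5.02 were raised to that floor. Levels of different probe sets cannot be set against each other. Array medians before scaling ran from 17.9 in the PB array at 28 days to 205 in the DMN control at 14 days. The EtOH array at 20 h had a Gapdh 3' to 5' log2 ratio of 3.13, against -0.51 to 0.34 in the other 51 arrays. At 20 h the array labelled as the saline control of EtOH and PB had a Cyp2b10 signal of 11.48 and the PB array one of 8.25, which goes against the labels, since Cyp2b10 is the textbook phenobarbital-induced gene; the labels were kept. Each of the 5 hepatocyte markers Alb, Apoa1, Ttr, Cps1 and Apoc3 had a log2 signal of at least 12.61 in every array.

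Promoter sequence is shown for the 3 members with matches to the metal response element, since these are the members through which Mtf1 is best known to act. The core was searched as TGCACNC and TGCGCNC on both strands, in windows of 250 bases before to 50 after the annotated start (RefSeq, GRCm38.p6). All 5 genes had a place in that annotation, and 4 had a window. Mt2 lies at chr8:94172618-94173567 and Mt1 at chr8:94178883-94180327, with 5315 bases between them. Slc30a1 lies at chr1:191906697-191913248, Mtf1 at chr4:124802549-124849800 and Slc39a14 at chr14:70303467-70351452. The sequences below run 5′ to 3′ on the plus strand, on which all 3 genes lie, and capitals mark the core, which reads as its reverse complement where the match is on the minus strand.
Mt2, chr8:94172368-94172617, before the start: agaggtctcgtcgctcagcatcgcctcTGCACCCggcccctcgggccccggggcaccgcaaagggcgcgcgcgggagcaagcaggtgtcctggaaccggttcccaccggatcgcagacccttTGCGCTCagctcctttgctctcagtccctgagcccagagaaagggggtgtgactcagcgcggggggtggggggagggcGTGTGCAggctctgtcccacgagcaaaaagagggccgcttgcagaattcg
Mt2, chr8:94172618-94172647, after the start: ggtcGTGCGCAggcccaggggcgtgtgctg
Mt1, chr8:94179059-94179088, before the start: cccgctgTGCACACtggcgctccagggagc
Mt1, chr8:94179089-94179118, after the start: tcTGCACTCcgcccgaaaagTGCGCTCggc
Slc30a1, chr1:191906731-191906760, before the start: gggttccGAGTGCAaagcaaagtttttttg
Slc30a1, chr1:191906801-191906830, after the start: cctccgggccGAGCGCAgtcgccgcggacg

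The Mt2 window held 4 matches, the Mt1 window 3 and the Slc30a1 window 2, none of them overlapping, and the Mtf1 window held 0. Of 32851 windows of 300 bases, 25.7% held at least 1 match, 7.11% at least 2, 1.97% at least 3 and 0.517% at least 4. The Mt1 window is set on a start 206 bases inside the annotated gene and the Slc30a1 window on one 84 bases inside it. The counts and the words before and after hold for these window starts only. A match is a stretch of letters and was not tested for binding.

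The main pattern in these genes was one of time and was present in the vehicle controls. Mt1 and Mt2 had high signals in every array at 4 h, and by 14 days the signal in the 5 controls was 14.5-fold lower for Mt1 and 11.2-fold lower for Mt2. Slc39a14 was 3.09-fold lower at 14 days, whereas the control signals of Slc30a1 and Mtf1 did not pass the test at any later time. The groups compared are the 5 controls at each time, in a limma fit with the control set as a block.

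**Figure D1:**
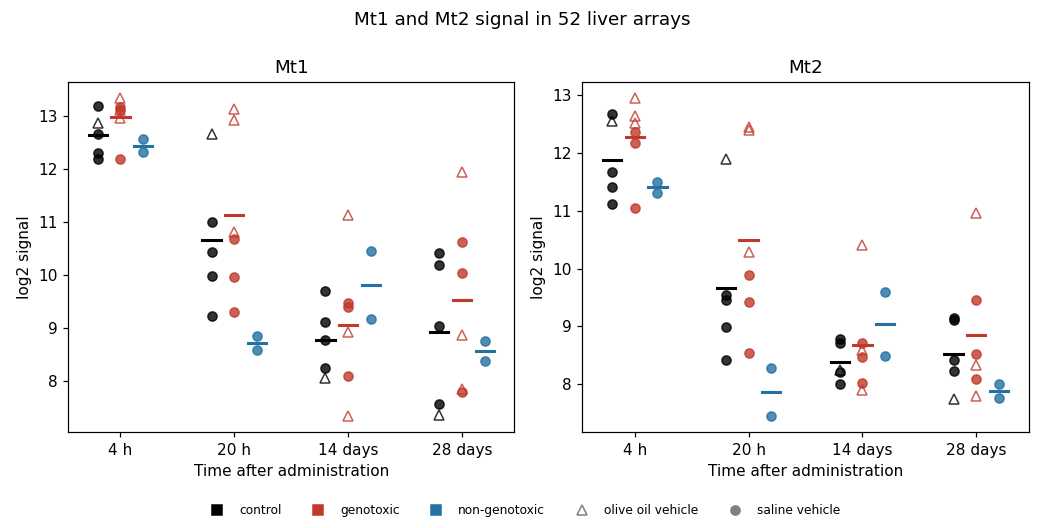
Log2 signal of Mt1 (left) and Mt2 (right) in each of the 52 arrays by time after administration, with controls in black, genotoxic chemicals in red and non-genotoxic chemicals in blue, open triangles for the olive oil vehicle, filled circles for saline, and bars at the group means. All 13 arrays at 14 days lie below all 13 at 4 h for both genes, a separation that was not counted over all probe sets. The high red triangles at 14 and 28 days are DMBA.

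The brighter Mt1 probe set, 1422557_s_at, had log2 signals at 4 h of 12.19 in the ENU control, 12.29 in the saline control of EtOH and PB, 12.66 in the DMN control, 12.87 in the olive oil control and 13.19 in the DPN control. At 14 days the same controls gave 8.78, 9.70, 8.24, 8.06 and 9.12. The groups did not overlap, and the lowest control at 4 h exceeded the highest at 14 days by more than the range within either time. How many of all probe sets separate in this way was not counted. The difference from 4 h was -3.86 (SE 0.615, adjusted p = 0.00387, limma with Benjamini-Hochberg adjustment over all 18349 probe sets) at 14 days and -3.72 (SE 0.615, adjusted p = 0.0311) at 28 days, when the 5 controls ran from 7.37 to 10.42. The 28 day call was lost when any 1 of the 5 control sets was left out (adjusted p from 0.0539 to 0.164), and the difference then ran from -4.15 to -3.27. Mt1 also has a dimmer probe set, 1451612_at, above the floor in 30 of 52 arrays, which gave -1.90 (SE 0.33, adjusted p = 0.00562) at 14 days and -1.87 (SE 0.33, adjusted p = 0.0362) at 28 days. Its later controls lay at or near the floor, so these differences are limited by the floor. The name of the brighter probe set carries the suffix for probes that can match more than 1 transcript, so a share of Mt2 RNA in its signal was not tested.

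Mt2, measured by 1428942_at, had control signals at 4 h of 11.12 (ENU), 11.40 (EtOH and PB), 11.67 (DMN), 12.54 (olive oil) and 12.66 (DPN). At 14 days they were 8.21, 8.71, 8.01, 8.25 and 8.78 in the same order, again with no overlap, which was not counted over all probe sets. The difference was -3.49 (SE 0.482, limma adjusted p = 0.00172) at 14 days and -3.35 (SE 0.482, limma adjusted p = 0.0147) at 28 days. At 28 days the call was lost without the DMN, the DPN or the EtOH and PB control set (adjusted p = 0.113, 0.15 and 0.105).

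At 20 h the controls of these 2 genes were split by vehicle. For Mt1 the 4 saline controls gave 9.22 (EtOH and PB), 9.98 (ENU), 10.43 (DMN) and 11.00 (DPN), and the olive oil control gave 12.65, close to its 12.87 at 4 h. For Mt2 the saline controls gave 8.43, 9.46, 9.54 and 8.99 and the olive oil control 11.89. The olive oil control thus stood above the highest saline control by 1.66 in Mt1 and 2.35 in Mt2 at 20 h, a description of 1 pool of 5 mice, while at 14 and 28 days it was the lowest of the 5 controls for Mt1. The test of 20 h against 4 h over all 5 controls gave -1.98 (SE 0.615, limma adjusted p = 0.40) for Mt1 and -2.22 (SE 0.482, limma adjusted p = 0.173) for Mt2. Without the olive oil set the Mt2 difference was -2.61 and passed (adjusted p = 0.0404), and without the EtOH and PB set, whose 20 h control has the doubtful label, the differences were -1.71 for Mt1 and -2.03 for Mt2. Over all 4 times together the olive oil controls differed from the saline controls by -0.02 (SE 0.549, adjusted p = 0.997) in Mt1 and 0.61 (SE 0.411, adjusted p = 0.61) in Mt2, by limma.

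Of the 8 member probe sets, 5 were called lower in the controls at 14 days than at 4 h, 3 at 28 days and 0 at 20 h, and 0 were called higher. At 20 h 5 of the 8 had an unadjusted p under 0.05 in limma, as did 7.59% of all probe sets. Over all probe sets 11.5% were called at 14 days, 0.196% at 28 days and 0.0109% at 20 h, in either direction, and the olive oil against saline comparison called 0%. The labels give no scan or extraction dates, so time after administration, age and any batch of arrays cannot be told apart. In bulk liver, fewer cells of a type and less RNA per cell cannot be told apart either.

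Slc39a14, the importer, was also lower in the later controls, with a call at 14 days and none at 20 h or 28 days. Its brighter probe set, 1427035_at, had control signals at 4 h of 9.59 (ENU), 9.76 (DMN), 10.25 (EtOH and PB), 10.52 (olive oil) and 10.62 (DPN), and at 14 days of 8.23, 8.57, 9.01, 8.13 and 8.67. All 13 arrays at 14 days were below all 13 at 4 h, and the share of all probe sets for which this holds was not counted. The control difference was -1.63 (SE 0.225, limma adjusted p = 0.00172) at 14 days, -0.87 (SE 0.225, limma adjusted p = 0.285) at 20 h and -1.02 (SE 0.225, limma adjusted p = 0.0926) at 28 days. The second probe set, 1425649_at, fell by 0.51 at 14 days (SE 0.131, limma adjusted p = 0.0272), so the 2 probe sets had the same direction and differed in size.

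Slc30a1, the exporter, had control signals between 6.46 and 7.19 at all 4 times. Its differences from 4 h at the 3 later times were -0.01, -0.24 and 0.01 in order (SE 0.151, limma adjusted p from 0.305 to 1). Mtf1, by its brighter probe set 1418333_at, had control signals between 6.40 and 7.51 and differences of 0.21, 0.22 and 0.25 (SE 0.187, limma adjusted p from 0.445 to 0.887). The second Mtf1 probe set, 1429170_a_at, was above the floor in 7 of 52 arrays and carries little information. Leaving out the EtOH and PB control set made the Slc30a1 difference at 14 days -0.45 and called (adjusted p = 0.021).

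**Figure D2:**
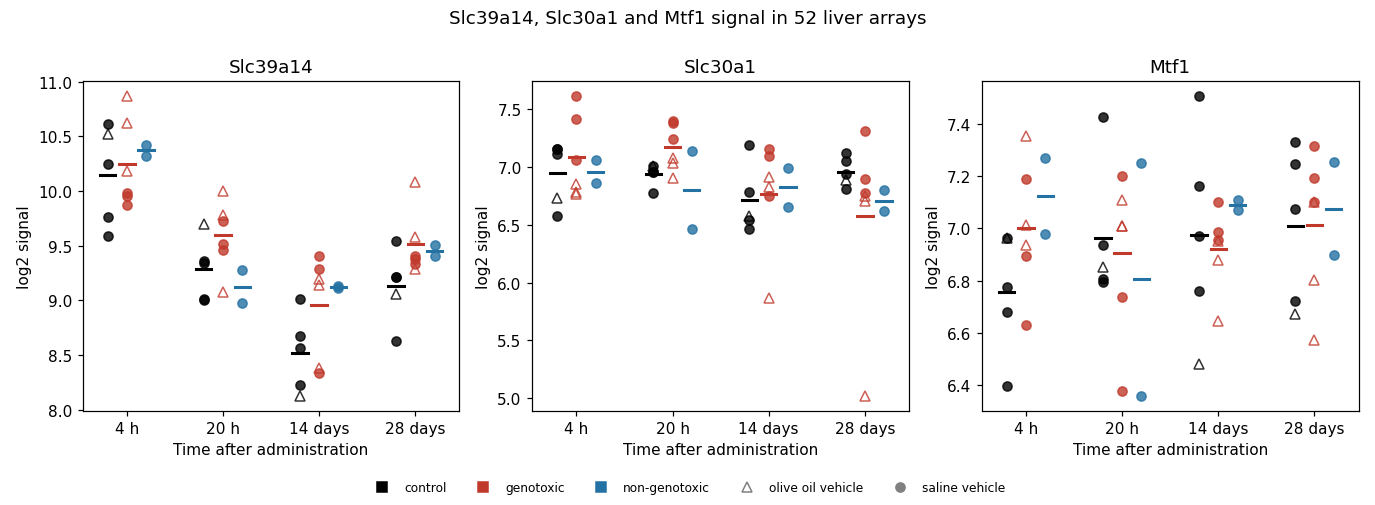
Log2 signal of Slc39a14, Slc30a1 and Mtf1 (brighter probe set of each) in each of the 52 arrays by time, with colours and symbols for class and vehicle and bars at the group means. Slc39a14 is highest at 4 h, while Slc30a1 and Mtf1 stay between about 6 and 8 apart from AAT in Slc30a1, at 5.87 at 14 days and at the floor of 5.02 at 28 days.

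The first question of the study's design is whether genotoxic chemicals differ from their vehicle controls, and in the genotoxic class 0 of the 8 member probe sets were called at any time, where 0% of all probe sets were called, so the count says nothing particular to these genes. The 6 genotoxic arrays of Mt1 had a lowest, median and highest signal of 12.18, 13.11 and 13.33 at 4 h, 9.30, 10.74 and 13.13 at 20 h, 7.34, 9.16 and 11.13 at 14 days, and 7.81, 9.46 and 11.94 at 28 days. At every time these overlapped with the controls. The fitted genotoxic difference for Mt1 was 0.18 (SE 0.194), -0.45 (SE 0.512), 0.54 (SE 0.694) and 0.47 (SE 0.892) at the 4 times in order, with limma adjusted p from 0.744 to 0.995. For Mt2 it was 0.08 (SE 0.232), -0.09 (SE 0.493), 0.29 (SE 0.488) and 0.30 (SE 0.654), with limma adjusted p from 0.817 to 1. The dimmer Mt1 probe set gave -0.49 (SE 0.258, limma adjusted p = 0.569), -0.35 (SE 0.548), -0.09 (SE 0.061) and 0.055 (SE 0.262). The 2 Mt1 probe sets thus disagreed in sign at 4 h and 14 days. The dimmer one was at the floor in 1 of 13 arrays at 4 h and in 7 of 13 at 14 days. The genotoxic difference of Mt1 at 28 days by the brighter probe set was 0.03 without DMBA, and that of Mt2 was -0.04, so 1 chemical carried both.

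For Slc39a14 the genotoxic difference was 0.61 at 14 days (SE 0.23, unadjusted p = 0.0303, limma adjusted p = 0.403) and between -0.02 and 0.23 at the other times. Of the 6 genotoxic ratios at 14 days 5 were above 0, namely DMBA 1.07, ENU 1.06, DBP 1.01, DPN 0.74 and AAT 0.25, and DMN was at -0.23. The second probe set gave -0.18 (SE 0.202) in the same comparison, so the 2 probe sets disagreed in sign. Slc30a1 gave 0.17, 0.28, 0.26 and -0.27, and Mtf1 gave 0.20, -0.10, -0.02 and 0.04, with all limma adjusted p at 0.612 or above.

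The non-genotoxic pair had no called member probe set either. EtOH and PB had Mt1 signals of 12.56 and 12.32 at 4 h, 8.85 and 8.59 at 20 h, 10.45 and 9.18 at 14 days, and 8.76 and 8.38 at 28 days. The fitted difference of Mt1 was 0.14 (SE 0.357), -0.50 (SE 0.94), 0.11 (SE 1.275) and 0.99 (SE 1.639), and of Mt2 0.00 (SE 0.426), -0.56 (SE 0.906), 0.32 (SE 0.896) and -0.34 (SE 1.201). At 4 h the dimmer Mt1 probe set gave -0.91 (SE 0.475), opposite in sign to the brighter one. The 20 h values rest on the EtOH array with the high Gapdh ratio and on the control with the doubtful label, and without EtOH they were -0.63 for Mt1 and -0.14 for Mt2. The brighter Slc39a14 probe set gave 0.83 at 28 days (SE 0.324, unadjusted p = 0.0356, limma adjusted p = 0.281) and the other 0.03 (SE 0.107). The 28 day values rest in part on the PB array with the lowest median before scaling.

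The 8 member probe sets had 0 calls by limma, and 2 of 128 tests with an unadjusted p under 0.05 (both of Slc39a14, given above), in the 16 class comparisons, which were genotoxic, non-genotoxic, their difference, and alkylating minus aromatic, each at 4 times. The share of all probe sets called was 0.136%, 0.153%, 0.12% and 1.02% for the non-genotoxic class from the earliest to the latest time. For genotoxic minus non-genotoxic it was 0.104%, 0.114%, 0.0599% and 0.518%, and for alkylating minus aromatic 0.125%, 0.0981%, 0.0436% and 0.0218%. At these shares a count of 0 in 8 says little about the members. The largest such difference of a member was Mt1 at 28 days, alkylating (ENU, DMN and DPN) minus aromatic (AAT, DMBA and DBP), at -2.58 (SE 1.763, limma adjusted p = 0.84).

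Among single chemicals, DMBA at 14 and 28 days had the largest ratios of Mt2 and of the brighter Mt1 probe set. A class difference averages such ratios, so the largest of them exceeds it by construction. DMBA had an Mt1 signal of 13.11 at 4 h, 12.92 at 20 h, 11.13 at 14 days and 11.94 at 28 days, where its olive oil control gave 12.87, 12.65, 8.06 and 7.37. The log2 ratio was 0.24 and 0.27 at the early times, 3.07 at 14 days and 4.57 at 28 days. In Mt2 the ratio was 0.10, 0.55, 2.16 and 3.21 in the same order, with signals of 10.40 at 14 days and 10.95 at 28 days. At 14 and 28 days the DMBA array was above all 5 controls for both genes. The highest Mt1 control was at 9.70 at 14 days and at 10.42 at 28 days, and the olive oil control was the lowest. The part of the low olive oil control in the ratios was not tested.

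The saline controls give a scale for such single ratios. The largest difference between any 2 saline controls was 1.46 at 14 days and 2.84 at 28 days for Mt1, and 0.78 and 0.92 for Mt2, and the DMBA ratios were past these. This limit leaves out the olive oil control, on which the DMBA ratios and ranks rest. Over all 5 controls the largest difference was 1.65 and 3.05 for Mt1, and 0.78 and 1.41 for Mt2. The saline controls had a mean Mt1 signal of 8.96 at 14 days and 9.31 at 28 days, where the olive oil control had 8.06 and 7.37. Over all probe sets, 9.5% of DMBA ratios at 14 days and 7.97% at 28 days were higher than the same limit for their own probe set. Within the 28 day DMBA array, Mt1 had the highest ratio of 18349 probe sets and Mt2 ranked 2, and at 14 days they ranked 6 and 17. The dimmer Mt1 probe set was at 6.15 in DMBA at 28 days, with a ratio of 1.13 to a control at the floor, and had a ratio of 0.06 at 14 days. Slc39a14 had ratios of 1.07 at 14 days and 1.03 at 28 days by its brighter probe set and -0.31 and 0.18 by the other, which disagreed in sign at 14 days. The ratios were, in the same order, for Slc30a1 0.34 and -0.14, and for Mtf1 0.40 and 0.13. These are single pools without a replicate check.

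In the same DMBA arrays, all 10 acute phase genes were above the olive oil control, with a median ratio of 1.66 at 14 days (the largest was Lcn2, a siderophore-binding protein, at 4.66) and 0.74 at 28 days (the largest was Saa2, a serum amyloid, at 3.16). All 8 glucocorticoid-induced genes were above it too, with medians of 0.69 and 0.40, against a median of 0 over all kept probe sets at both times. The Kupffer cell markers had medians of 0.28 (5 of 7 above) and 0.35 (6 of 7 above). In the fit of the whole genotoxic class, DMBA included, 10 of 10, 7 of 8 and 7 of 7 genes of these lists were higher at 14 days. At 28 days 4 of 10, 5 of 8 and 6 of 7 were higher, and 0 were called at either time. In the non-genotoxic class 3 of 10, 7 of 8 and 0 of 7 were higher at 14 days. At 28 days 8 of 10, 8 of 8 and 6 of 7 were higher in that class, with medians of 0.36, 0.53 and 0.22. The direction of the glucocorticoid-induced genes was thus not particular to DMBA. The part of these genes in the metallothionein ratios was not tested.

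DBP, the other polycyclic hydrocarbon, had Mt1 ratios of 0.46, 0.48, 0.86 and 1.51 at the 4 times and Mt2 ratios of 0.40, 0.50, 0.35 and 0.59. Its ratio by the dimmer Mt1 probe set was -0.04 at 4 h and -0.82 at 20 h, against the sign of the brighter one. DBP was given at 6 mg/kg and DMBA at 20 mg/kg, so the values stand side by side without a comparison. Neither DBP ratio of Mt1 at 14 or 28 days was past the largest difference between saline controls.

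**Figure D3:**
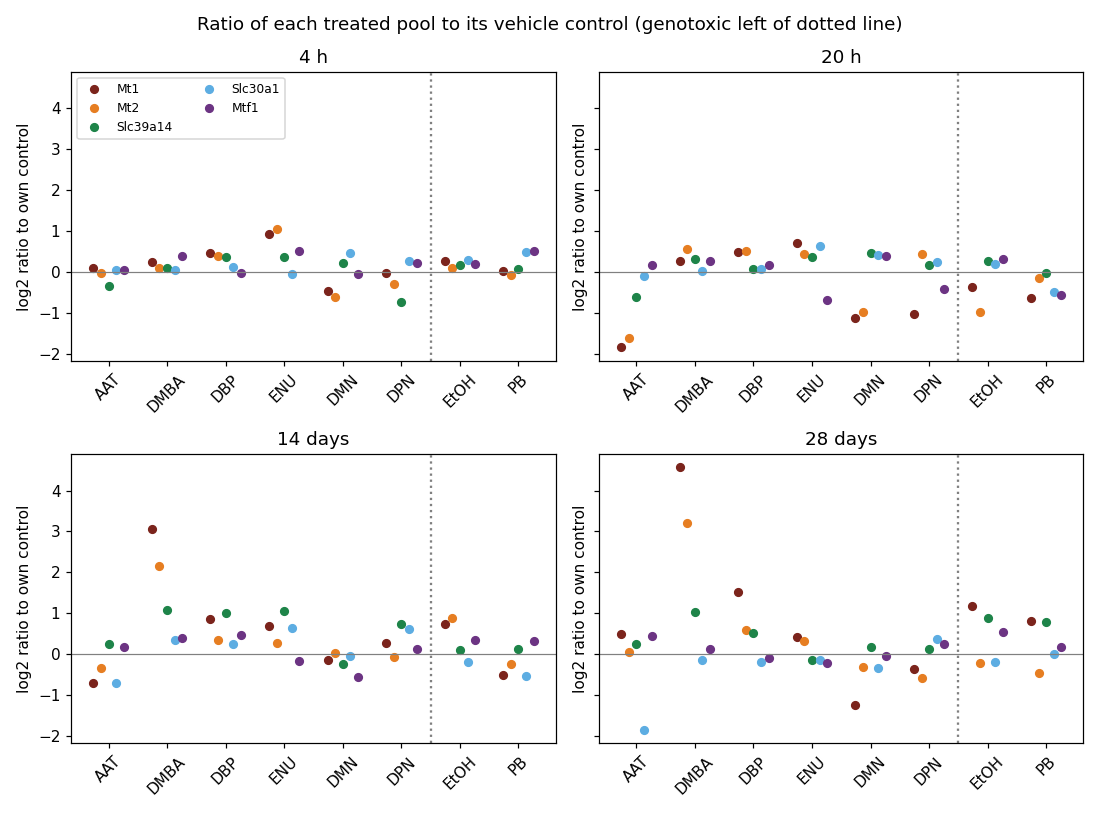
Log2 ratio of each treated pool to its own vehicle control, for the brighter probe set of each of the 5 genes, in 1 panel per time, with the 6 genotoxic chemicals left of the dotted line and EtOH and PB right of it. DMBA stands highest at 14 and 28 days with Mt1 at 3.07 and 4.57, AAT lowest at 20 h with Mt1 at -1.84, and Slc30a1 is lowest in AAT at 28 days at -1.86.

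AAT went the other way at 20 h. Its Mt1 signal was 10.81 against 12.65 in the olive oil control, a ratio of -1.84, its Mt2 signal was 10.28 against 11.89, a ratio of -1.61, and the dimmer Mt1 probe set was at the floor with a ratio of -2.69. Both brighter ratios were past the largest difference between saline controls (1.77 for Mt1 and 1.11 for Mt2), as were 11.3% of all AAT ratios on the low side. The limit includes the saline control with the doubtful label. Without that control it was 1.02 for Mt1 and 0.55 for Mt2, and with its label exchanged with the PB array, a setting added after seeing the data, it was 2.40 and 1.25, so that the Mt1 ratio was then no longer past it. Against the 4 saline controls (9.22 to 11.00) the AAT signal of Mt1 was not low. At 4 h its ratios were 0.08 and -0.02. In the 20 h AAT array the acute phase genes had a median ratio of -0.44, with 0 of 10 above the control, and the antioxidant genes one of 0.74, led by Srxn1 (sulfiredoxin) at 2.80. Their part was not tested.

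AAT also held the lowest Slc30a1 signals, 5.87 at 14 days and 5.02, the floor, at 28 days, where the other 12 arrays of those times lay between 6.46 and 7.19 and between 6.62 and 7.31. The ratios were -0.71 and, limited by the floor, -1.86. The largest difference between saline controls was 0.73 at 14 days and 0.32 at 28 days. Its Mt1 ratios at these times were -0.72 and 0.49.

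Among the nitroso compounds, DMN had Mt1 ratios of -0.48, -1.13, -0.14 and -1.24 and Mt2 ratios of -0.62, -0.99, 0.01 and -0.33. DPN, which carries propyl in place of methyl groups, had Mt1 ratios of -0.03, -1.03, 0.28 and -0.37 and Mt2 ratios of -0.30, 0.44, -0.07 and -0.58. Their doses were 5 and 250 mg/kg, so no comparison is made. ENU had the highest ratios of the 4 h arrays, 0.91 in Mt1 and 1.04 in Mt2, both within the largest difference between saline controls (1.00 and 1.54), and its control was the lowest of the 5 at that time. By the dimmer Mt1 probe set the ENU ratio at 4 h was -0.29.

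Mt1 and Mt2 moved together across arrays. Their Pearson r was 0.953 within the 13 arrays of 4 h, 0.960 at 20 h, 0.924 at 14 days and 0.912 at 28 days, with Spearman rho of 0.929, 0.907, 0.846 and 0.901. Each had a permutation p adjusted over the 40 within-time relations of the 10 pairs of genes between 0.0002 and 0.0054, from 100000 resamples. Without the 2 arrays farthest from the Mt1 median, r was 0.926, 0.917, 0.898 and 0.863. These r values are open to shared probes and to shared control pools, and treated arrays are not replicates of each other. Of 32 treated arrays, 25 had Mt1 and Mt2 ratios of the same sign, and 3 of the 8 with an Mt1 ratio of at least 2-fold also had an Mt2 ratio of at least 2-fold.

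**Figure D4:**
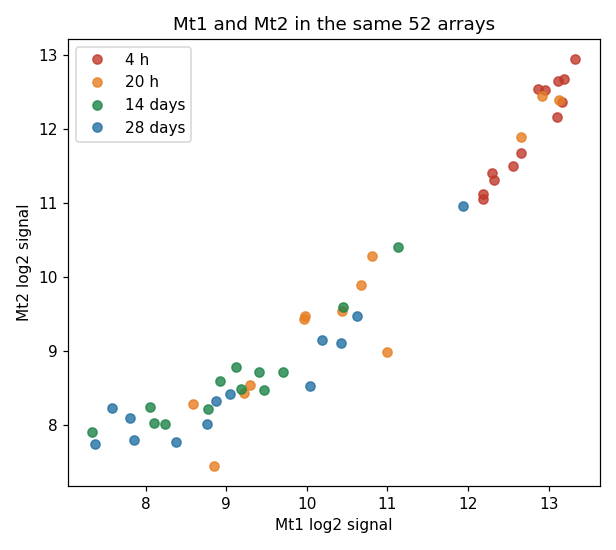
Log2 signal of Mt2 against Mt1 (brighter Mt1 probe set) in the same 52 arrays, with 1 colour per time after administration. The 4 h arrays lie at the top right, from 12.18 in Mt1 and 11.05 in Mt2 upward, and the 14 and 28 day arrays at the lower left.

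Slc39a14 was related to Mt1 more loosely, with r of 0.483 (4 h), 0.732 (20 h), 0.728 (14 days) and 0.666 (28 days) and rho of 0.484, 0.670, 0.742 and 0.516. The permutation p of r, adjusted over the 40 relations, was 0.20, 0.0304, 0.0304 and 0.0455, and that of rho was 0.237, 0.0665, 0.0348 and 0.208. Without the 2 farthest arrays r was 0.254, 0.519, 0.739 and 0.440, so the 28 day relation rests largely on those arrays. Mt1 and Slc30a1 had r of 0.677 at 14 days (rho 0.742, adjusted permutation p = 0.0464 and 0.0348), 0.595 without the 2 farthest arrays, and between -0.15 and 0.34 at the other times. Mtf1 had no relation to Mt1 or Mt2 with an adjusted permutation p under 0.15.

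The genes most like each member over all 52 arrays are a description, since time sets much of the pattern. For Mt1 they were Mt2 (r 0.966), Gne (0.819), Slc39a14 (0.817), Stat3 (0.796) and Steap4 (0.793), and over the 20 controls their r with Mt1 was 0.951, 0.824, 0.866, 0.822 and 0.764. The 20 controls span the same 4 times. Within single times r with Mt1 ran from -0.205 (14 days) to 0.945 (20 h) for Steap4. For Stat3 it ran from 0.077 (14 days) to 0.801 (20 h), and for Gne from 0.284 (4 h) to 0.87 (28 days). The genes most like Mt2 were Mt1, then Steap4 (0.848), Stat3 (0.829), Il1r1 (0.825) and Fkbp5 (0.814). Gne starts sialic acid synthesis, Stat3 carries interleukin signals into the nucleus, Steap4 is a metal reductase, Il1r1 is an interleukin receptor and Fkbp5 a co-chaperone of the glucocorticoid receptor. Slc39a14 was most like Snx10 (0.86) and Nnmt (0.855). Slc30a1 and Mtf1 had no close match, with highest r of 0.631 (Rxylt1) and 0.506 (Chac1).

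Other genes of zinc and metal handling are given for the same comparison of the controls at 14 days and 4 h, in which 11.5% of all probe sets were called. Beside that share, counts in lists this short say little about their genes. Of the other metallothioneins, Mt4 did not pass the filter and Mt3 lay near the floor. Of 6 measured zinc exporters 0 were called higher and 1 lower in the controls at 14 days, with a median difference of -0.29, and of 9 measured importers other than Slc39a14 0 were called, with a median of -0.14. The median over all genes was -0.08. The called exporter was Slc30a9 at -0.45 (SE 0.134, limma adjusted p = 0.0427). Of 4 measured genes linked to Mtf1, 1 was called higher, Gclc, which makes glutathione, at 0.71 (SE 0.169, limma adjusted p = 0.0196), and of 10 copper and iron genes 0 were called. These 2 genes, and those of the next paragraph, were named after their values had been seen.

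The acute phase genes were also lower in the later controls. All 10 were lower in the controls at 14 days than at 4 h and 8 of 10 were called, with a median difference of -1.94, beside the 11.5% called over all probe sets. Saa2 was at -3.89 (SE 0.632, limma adjusted p = 0.00415), Saa1 at -2.51 (SE 0.426, limma adjusted p = 0.00501) and Socs3, a feedback inhibitor of cytokine signals, at -1.76 (SE 0.413, limma adjusted p = 0.0194). At 28 days 9 of 10 were lower and 0 were called, with a median of -1.25. At 20 h the median was 0.09 and 0 were called, and Mt1 and Mt2 were lower than at 4 h without a call. Of 8 glucocorticoid-induced genes 2 were called lower at 14 days, Fkbp5 at -1.70 (SE 0.202, limma adjusted p = 0.00115) and Pck1 at -0.56 (SE 0.152, limma adjusted p = 0.0327), and Fkbp5 was called again at 28 days at -1.63 (SE 0.202, limma adjusted p = 0.00512). Of 6 antioxidant genes 2 were called lower at 14 days, Hmox1 at -1.15 (SE 0.257, limma adjusted p = 0.0158) and Txnrd1 at -0.45 (SE 0.108, limma adjusted p = 0.0198). The part of these genes in the metallothionein difference was not tested.

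Against the vehicle controls at 4 h, these lists held 0 calls in the genotoxic class. The 8 glucocorticoid-induced genes were all above 0, and the largest were Sgk1 at 0.99 (SE 0.356), Per1 at 0.69 (SE 0.271) and Tsc22d3 at 0.65 (SE 0.298), with limma adjusted p from 0.477 to 0.528. All 8 were above 0 in the non-genotoxic class at 4 h too, with a median of 0.25 against 0.52 in the genotoxic class. Of all genes, 52.9% were above 0 in the genotoxic class and 55.4% in the non-genotoxic one. In the genotoxic class the largest acute phase values were below 0, with Lcn2 at -1.22 (SE 0.9), Saa3 at -1.17 (SE 0.52) and Saa2 at -0.83 (SE 0.657). Among antioxidant genes Osgin1 gave -0.68, Srxn1 0.48 and Hmox1 0.43. Among metal genes the largest were Selenoh at -0.43, Tfrc (the transferrin receptor) at 0.42, Slc30a4 at 0.26, Slc30a6 at 0.23, Slc39a8 at -0.21 and Slc39a7 at 0.20. Atox1, the copper chaperone, was the only gene of the metal lists called in a class comparison, at 0.75 in the non-genotoxic class at 28 days (SE 0.121, limma adjusted p = 0.0427). That class includes the PB array with the lowest median before scaling.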

How the data were processed

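The authors deposited a linear intensity for each probe set on 52 arrays with RNA pooled from 5 mice each. For their software and scaling, nothing was given in the sources used here. The probe set names belong to another array design than the one the paper names. All 52 columns were used, and no detection calls were used. The number of arrays limits the precision.

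Affymetrix control probe sets (64) were dropped. Arrays were brought to a common median (the mean of all medians), signals were floored at 32.5, the 30th percentile, and put on the log2 scale. A probe set was used if 4 or more arrays exceeded this floor. A single symbol was annotated to 20380 probe sets, more than 1 to 691, and no symbol to 1555. With R 4.3.3, limma 3.58.1 (eBayes with a mean trend) fitted the 13 arrays of each time with class terms and the control set as a block (6 residual degrees of freedom, 5 with 3 classes), and the 20 controls over time with the control set as a block (12 residual degrees of freedom) or by vehicle (15). Calls had a Benjamini-Hochberg adjusted p under 0.05.

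Lists were represented by the brightest kept probe set of each gene. Genes of the lists were named where called in a class comparison or among the 3 of a list with the largest genotoxic difference at 4 h, and the 5 most alike genes by Pearson r. Promoters were read from RefSeq windows. Members and lists were chosen with earlier results of these data known. Alternatives were quantile and trimmed mean scaling, values as deposited, other floors and filters, no block, no trend, 1 fit of all arrays and leaving out each chemical or control set. Correlations used 100000 resamples in Python, and figures were drawn with matplotlib.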

Additional observations from a re-analysis of the deposited data

Results flagged for a closer look

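In 60 groups of 5 control or 6 genotoxic log2 signals of a member probe set, 14 arrays lay far from the rest of their group, a test that chance meets in about 1 in 20 groups. Among them 2 were in Slc30a1 with AAT, at 5.87 at 14 days and 5.02 (the floor) at 28 days. DMBA was far above the other genotoxic arrays in Mt2 at 14 days (10.40), in Slc39a14 at 28 days (10.09 by 1427035_at) and in the dimmer Mt1 probe set at 28 days (6.15). DMN was the lowest genotoxic array of Mt1 at 4 h, at 12.18. The ENU control at 20 h was high in Mtf1 (7.43) and low in Slc30a1 (6.77).

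The others were arrays above the floor of 5.02 in groups of which most arrays lay at it, where the rate of 1 in 20 does not hold. They were DMBA at 14 days (5.10) and the DPN control at 28 days (5.63) in the dimmer Mt1 probe set and, in the dimmer Mtf1 probe set, AAT at 4 h (5.20), the DMN control at 4 h (5.62), AAT at 20 h (5.48) and DPN at 14 days (5.26).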

How the results depend on the processing

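Over 69 results, 453 of 476 other settings and 359 of 396 fits that left out a chemical or control set kept direction and side of the threshold. The Mt1 and Mt2 differences of 14 days from 4 h in the controls passed under every setting run, Mt1 between -4.18 and -3.62 with adjusted p up to 0.0498. The causes of the changes below were not tested.

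With values as deposited, Slc39a14 at 14 days lost its call (-1.72, adjusted p = 0.202), 2 member probe sets were called at 14 days in place of 5, and these turned sign: genotoxic Mt2 at 20 h (0.15), Mtf1 at 20 h (0.14) and 28 days (-0.10), non-genotoxic Mt1 (-0.18) and Mt2 (-0.32) at 4 h, Slc30a1 in the 28 day controls (-0.11) and Mt1 in olive oil against saline (0.12). Quantile scaling called Slc39a14 at 28 days (-1.06, adjusted p = 0.0431) and turned Mt2 at 4 h (genotoxic -0.03, non-genotoxic -0.09) and Mt1 in olive oil against saline (0.21). Trimmed mean scaling gave -1.06 (adjusted p = 0.0352), -0.07 for non-genotoxic Mt2 at 4 h, -0.02 for Slc30a1 at 28 days and 0.10 for Mt1 by vehicle. Without the control-set block, genotoxic Mt1 and Mt2 at 20 h were 0.48 and 0.83, Slc39a14 at 4 h 0.10, and non-genotoxic Mt1 and Mt2 at 4 h -0.20 and -0.48 and Mt1 at 28 days -0.35. None of the turned values was called.

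Leaving out 1 chemical or control set gave these ranges. In controls Mt1 at 28 days ran from -4.15 to -3.27, Mt2 at 20 h from -2.61 to -1.85 and at 28 days from -3.70 to -2.99. Slc30a1 ran from -0.10 to 0.08 at 20 h, from -0.45 to -0.13 at 14 days (called without the EtOH and PB set, adjusted p = 0.021) and from -0.04 to 0.07 at 28 days. Called member probe sets ran from 0 to 1 at 20 h, 3 to 5 at 14 days (3 without the DPN set) and 0 to 2 at 28 days. Mt1 by vehicle ran from -0.20 to 0.21; the vehicle settings were chosen after seeing the data. In the genotoxic class Mt1 at 4 h ran from -0.03 to 0.37, Mt2 at 4 h from -0.20 to 0.28, at 20 h from -0.24 to 0.17 and at 28 days from -0.04 to 0.55. Slc39a14 at 4 h ran from -0.13 to 0.18, and Mtf1 from -0.24 to 0.08 at 20 h, from -0.06 to 0.14 at 14 days and from -0.01 to 0.12 at 28 days. In the non-genotoxic class Mt1 at 14 days ran from -0.52 to 0.74, and Mt2 from -0.09 to 0.09 at 4 h and from -0.23 to 0.88 at 14 days.

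No paired analysis was possible because the replicate numbers pair no arrays, beyond the pairing of treated arrays with their own control that the control-set block of the fits already holds. With 1 pool per chemical and time, no value has an error between mice, and signals near the floor have no order.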
